A study of Mus musculus with 8 samples.

Results

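The 46 genes described here encode collagens, proteoglycans and glycoproteins of the extracellular matrix of the liver, the enzymes and inhibitors that build and remodel it, and the cytokine Tgfb1. They were taken by gene symbol from the 55487 genes of the deposited expression table. Each symbol had a single row there, and 0 of the 46 genes were listed at 0 in every library. By role they were 9 fibrillar collagens and assembly partners, 8 basement membrane genes, 3 small proteoglycans, 13 glycoproteins and elastic fibre genes, 12 remodelling genes and 1 ligand. The study sequenced liver RNA of male wild-type C57BL/6N mice in 8 libraries of 4 groups. Mice fed normal chow with tap water and injected with corn oil (normal diet + oil) gave 3 libraries, and those fed a western diet and injected with oil (western diet + oil) gave 2. Chow with carbon tetrachloride (normal diet + CCl4) gave 2 libraries, and the western diet with CCl4 (western diet + CCl4) gave 1. The western diet was a high-fat feed, its drinking water was sweetened with fructose (23.1 g/L) plus glucose (18.9 g/L), and CCl4 or oil was given into the peritoneum each week. The dose of CCl4, the length of treatment and the age of the mice are not given in the sources used here. Nothing states that the libraries came from separate animals, so the spread that p-values measure here is that of libraries and may be technical alone.

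In the healthy liver, matrix is sparse along the sinusoids and denser around portal tracts and the capsule. Fibrillar collagens bear tension, while type IV collagen, laminins, nidogen and perlecan form basement membranes. Small leucine-rich proteoglycans bind collagen fibrils and growth factors, lysyl oxidases cross-link the fibrils, and matrix metalloproteinases and their TIMP inhibitors set how fast the matrix turns over. Hepatic stellate cells and portal fibroblasts are the known main sources of fibrillar collagen in fibrosis, and TGF-beta is the classic signal that drives them. CCl4 is a hepatotoxin used to injure the liver and, on repeated dosing, to model fibrosis. The comparisons asked how the diet, the toxin and both together altered these genes.

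Values are FPKM (fragments scaled by transcript length and library total), so depth is unknown. A library listed from 12531 to 14843 genes above 0, and the smallest value above 0 lay between 0.252 and 0.318 FPKM, so a gene listed at 0 may be expressed below that level. Genes were tested with limma on log2(FPKM + 1) where FPKM reached 1 in at least 2 libraries, which left 11514 genes and 36 of the 46. A gene passed at a Benjamini-Hochberg adjusted p below 0.05 over all tested genes. Hepatocyte markers summed to between 41319 and 68650 FPKM and 0 of the 12 were at 0 anywhere. The numbered Mup genes encode abundant secreted proteins of male liver. Their share of summed FPKM was 15.6%, 20.6% and 30.6% in the 3 controls (normal diet + oil), 8.16% and 8.61% under western diet + oil, 2.33% and 3.98% under normal diet + CCl4, and 7.06% in the western diet + CCl4 library. Because FPKM is a relative measure, such shares bear on every other gene. The median gene stood 0.22, 0.26 and 0.19 log2(FPKM + 1) units above normal diet + oil in western diet + oil, normal diet + CCl4 and western diet + CCl4. With the Mup genes removed and libraries scaled to a common sum, it stood 0.11, 0.16 and 0.07 above. The part of the Mup share in this shift was not tested. Changes of the matrix genes are to be read against the medians of 0.22, 0.26 and 0.19.

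**Figure D1:**
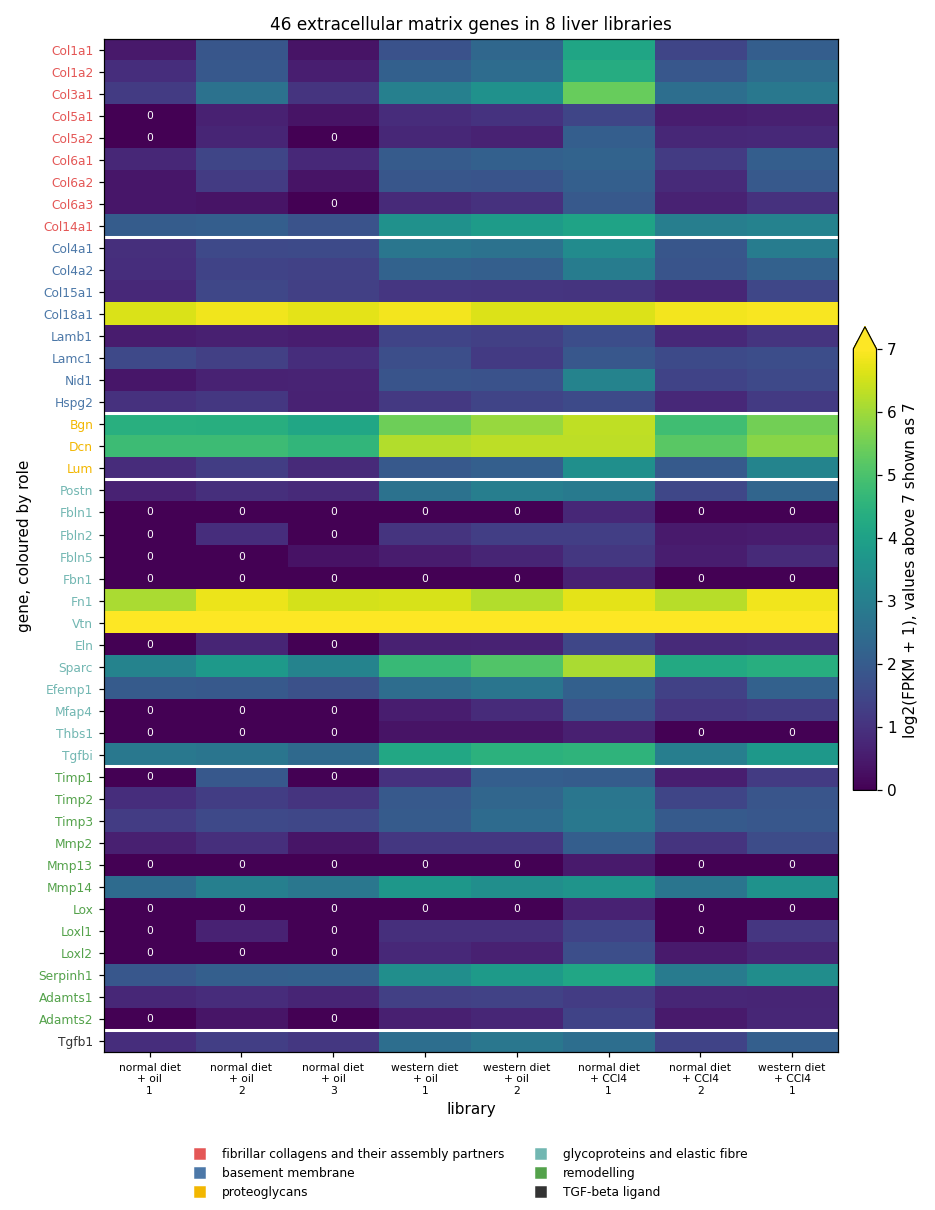
Heat map of log2(FPKM + 1) for the 46 matrix genes (rows, grouped by role) in the 8 libraries (columns, grouped by diet and injection), with values listed at 0 marked and the colour scale capped at 7. Vtn, Col18a1 and Fn1 are at or near the cap in all 8 libraries, and normal diet + CCl4 library 1 is the highest library for 36 of the 46 genes.

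The most abundant of these transcripts were Vtn, Col18a1 and Fn1 and not the fibrillar collagens. Vtn, Col18a1, Fn1, Dcn, Bgn and Sparc took places 1 to 6, in that order, by mean FPKM in all 4 groups. Vtn encodes vitronectin, an adhesive plasma protein secreted by hepatocytes, and had 1158, 1034 and 826 FPKM with normal diet + oil, 898 and 950 with western diet + oil, 1012 and 1126 under normal diet + CCl4, and 1411 in western diet + CCl4. Fn1 encodes fibronectin, which hepatocytes also secrete into plasma, and had 67.7, 110 and 93.3 FPKM, then 94.0 and 71.5, 103.8 and 75.1, and 113.8 in the same order of groups. Places 2 and 3 did not differ beyond their spread with normal diet + oil, where Col18a1 lay between 96.3 and 113.8 FPKM, nor under normal diet + CCl4, where Dcn and Bgn also overlapped. For Vtn and Fn1 the values of the western diet + oil and normal diet + CCl4 libraries overlapped those of the controls, and the western diet + CCl4 library was the highest of the 8 for both. Vtn, Fn1 and Col18a1, a group chosen after their values were seen, made up 93.6%, 91.3% and 92.5% of the summed FPKM of the 46 genes with normal diet + oil, 80.9% and 78.1% with western diet + oil, 71.9% and 89.7% under normal diet + CCl4 and 87.6% in western diet + CCl4. The other 43 genes together summed to 90.8, 120.2 and 83.5 FPKM, then 261.5 and 314.2, 475.5 and 151.1, and 232.7.

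At the low end, 30 genes were above 0 in every library and 16 were listed at 0 in at least 1. Mfap4, Thbs1, Loxl2, Fbln1, Fbn1, Mmp13 and Lox were at 0 in all 3 normal diet + oil libraries. Of these, Fbln1 (0.718 FPKM), Fbn1 (0.571), Lox (0.578) and Mmp13 (0.430) were above 0 in normal diet + CCl4 library 1 alone. They encode fibulin-1, fibrillin-1, the collagen cross-linking lysyl oxidase and a collagenase. The number of genes listed at 0 was 15, 8 and 14 with normal diet + oil, 4 and 4 with western diet + oil, 0 and 6 under normal diet + CCl4 and 5 in western diet + CCl4. The 10 genes too low to be tested were Col5a2, Fbln1, Fbln5, Fbn1, Eln, Thbs1, Mmp13, Lox, Loxl2 and Adamts2.

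With western diet + oil, Col14a1, Dcn, Postn, Serpinh1 and Tgfb1 rose and 0 fell, 5 of the 36 tested members. The background was 3.81% of all tested genes called higher and 0.599% called lower. At an unadjusted p below 0.05, 22 genes were higher and 0 lower, against 20.9% and 2.41% of all genes. Both western diet + oil libraries stood above all 3 controls for 33 of the 46 genes. Of the 36 tested members it was 29, against 40.7% of all tested genes. Below all controls stood 0 of the 46 (5.18% of all). The median log2(FPKM + 1) difference over the 46 was 0.76, and 0.92 over the 36 tested, against 0.22 over all tested genes. In bulk tissue, more cells of a type and more RNA per cell cannot be told apart. The 5 calls rested on all of the compared libraries: the count was 0 without any 1 of the 3 normal diet + oil or the 2 western diet + oil libraries, with adjusted p of those genes up to 0.345, and over all alternatives from 0.0034 to 0.345. The count rose without normal diet + CCl4 library 1 or library 2, either of which removes that group's own spread from the shared error. Calls over all tested genes fell and rose in the same runs. With median-of-ratios scaling 2 passed, Col14a1 and Postn, and without the Mup genes 3, those and Dcn.

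Under normal diet + CCl4, 1 of the 36 tested members rose, Mfap4, and 0 fell, against 1.02% of all tested genes called higher and 0.4% called lower. Mfap4 met the filter for testing only through libraries with CCl4, so this call is not independent of the filter. At an unadjusted p below 0.05, 21 were higher and 0 lower, against 20.6% and 2.18% of all genes. Both normal diet + CCl4 libraries were above all controls for 24 of the 46 and for 19 of the 36 tested, against 41.8% of all tested genes. The median difference over the 46 was 0.84, with 0.26 over all tested genes. Over the 36 tested genes the median was 0.94, and it was 0.39 without normal diet + CCl4 library 1 and 1.43 without library 2. The count rose without normal diet + CCl4 library 2. The call was lost without library 1, any control library or either western diet + oil library. Calls over all tested genes rose and fell in the same runs. In western diet + CCl4, with 1 library that is assumed to vary like the other groups, 0 genes passed limma against normal diet + oil (0.669% of all genes called higher and 0.261% lower), with 13 higher and 0 lower at an unadjusted p below 0.05 (12.6% and 2.67% of all genes). That library was above all 3 controls for 36 of the 46 genes and 31 of the 36 tested, against 51.5% of all tested genes. Its median difference was 0.73 over the 46 and 0.95 over the 36 tested. Without normal diet + CCl4 library 1 or library 2 some passed, and calls over all tested genes rose too. All 3 comparisons share the same 3 control libraries.

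**Figure D2:**
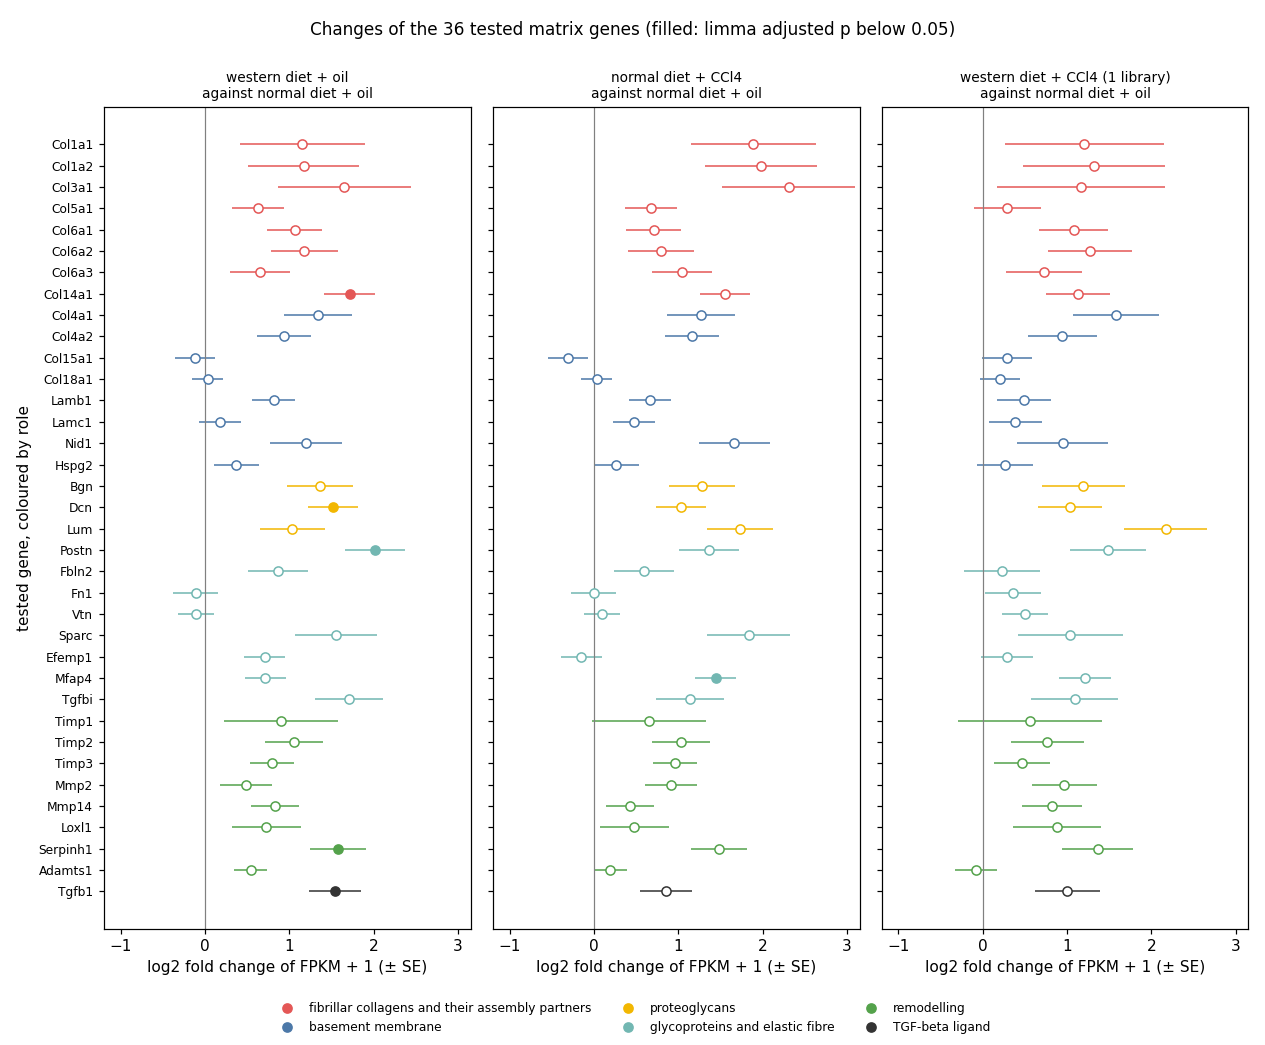
Differences in log2(FPKM + 1) from normal diet + oil (horizontal axis, points with SE bars from limma) for the 36 tested matrix genes in western diet + oil, normal diet + CCl4 and western diet + CCl4, with filled points for genes that passed. The 5 filled points of western diet + oil lie between 1.51 and 2.01, and the 1 of normal diet + CCl4 is Mfap4 at 1.44.

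Serpinh1, Tgfb1 and Postn, which rose with western diet + oil, had an entry in the RefSeq promoter table used here (GRCm38.p6), and their 250 bases before the start are shown because these genes were called together. Capitals mark every match, on either strand, to the 4 motifs searched: the CCAAT box (CCAAT), the GC box (GGGCGG), the TATA box (TATAAA) and the AP-1 site (TGANTCA). The sequences run 5′ to 3′ on the strand of the gene, at chr7:99353240-99353489 (minus) for Serpinh1, chr7:25686752-25687001 (plus) for Tgfb1 and chr3:54360857-54361106 (plus) for Postn.
Serpinh1: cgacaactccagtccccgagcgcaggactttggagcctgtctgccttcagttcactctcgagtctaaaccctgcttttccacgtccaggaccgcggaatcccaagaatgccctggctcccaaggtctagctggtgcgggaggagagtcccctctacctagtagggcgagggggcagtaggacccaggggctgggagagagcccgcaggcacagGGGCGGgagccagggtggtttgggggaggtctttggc
Tgfb1: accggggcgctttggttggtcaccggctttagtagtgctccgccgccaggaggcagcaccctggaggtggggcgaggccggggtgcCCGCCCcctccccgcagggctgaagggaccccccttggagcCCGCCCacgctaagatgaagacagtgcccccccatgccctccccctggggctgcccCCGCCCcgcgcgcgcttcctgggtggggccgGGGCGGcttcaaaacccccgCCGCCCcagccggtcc
Postn: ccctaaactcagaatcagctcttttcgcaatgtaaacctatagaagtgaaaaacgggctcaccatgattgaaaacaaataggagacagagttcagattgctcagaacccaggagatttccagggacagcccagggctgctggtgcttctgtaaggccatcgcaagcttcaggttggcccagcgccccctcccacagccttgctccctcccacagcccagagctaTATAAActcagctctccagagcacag
The window of Serpinh1 held 1 GC box, whose first base lies 37 bases before the start, and that of Tgfb1 held 5. The Postn window held no GC box and a TATA box whose first base lies 26 bases before the start. The table lists another start for Postn, whose window at chr3:54359017-54359266 held none of the 4 motifs. The windows thus differ in base composition, with 63.6%, 75.2% and 52.0% G or C. Across all 37 windows of the 32 matrix genes in the table, 24 held a GC box, 10 a CCAAT box, 5 a TATA box and 3 an AP-1 site. Many of these windows overlap annotated exons, those of Col1a2, Hspg2 and Sparc among them. The windows of both Col6a2 starts overlap each other, as do those of Fbln1, so the windows are not independent. Of 32851 windows of the same length in that table, 32.7% held a GC box, 33.8% a CCAAT box, 12.4% a TATA box and 6.75% an AP-1 site. A match describes the letters alone.

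Fibrillar collagens and assembly partners were low in chow-fed controls, higher in most treated libraries and highest in normal diet + CCl4 library 1 for all 9 genes. Of the 9 genes, 1 rose with western diet + oil, Col14a1, and 0 passed in normal diet + CCl4 or western diet + CCl4. Their median log2(FPKM + 1) differences from normal diet + oil were 1.15, 1.20 and 1.13 in those 3 groups. The groups stood above the controls without overlap for 7, 3 and 8 of the 9. Of the 8 tested it was 7, 2 and 7, against 40.7%, 41.8% and 51.5% of all tested genes. Col14a1 (ENSMUSG00000022371, chr15:55307750-55520803, plus strand, GRCm38) encodes a collagen that sits on the surface of fibrils and is no fibril former itself. It had 3.12, 3.26 and 2.46 FPKM with normal diet + oil, 10.6 and 13.3 with western diet + oil, 15.8 and 6.90 under normal diet + CCl4 and 7.61 in western diet + CCl4. Every treated library lay above every control. The western diet + oil mean was 4.07 times that of the controls (2.94 ± 0.43 FPKM, SD, n = 3, and 12.0 ± 1.89, n = 2), a log2(FPKM + 1) difference of 1.72 ± 0.30 (SE; limma adjusted p = 0.0272). The difference was 1.55 ± 0.30 under normal diet + CCl4 (limma adjusted p = 0.0556).

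The major fibril formers did not pass in any comparison. Col1a1 (ENSMUSG00000001506, chr11:94936224-94953042, plus strand), the alpha-1 chain of type I collagen, had 0.384, 2.68 and 0.284 FPKM with normal diet + oil, 2.42 and 4.06 with western diet + oil, 16.4 and 1.77 under normal diet + CCl4 and 3.30 in western diet + CCl4. Control library 2 lay above normal diet + CCl4 library 2 and above western diet + oil library 1, so both of those groups overlapped the controls. Col1a2, which gives the alpha-2 chain of the same trimer, had 0.894, 2.83 and 0.491 FPKM, then 3.40 and 4.59, 19.3 and 2.76, and 4.51 in the same order. Col3a1, the chain of type III collagen, had 1.34, 5.28 and 1.06 FPKM, then 7.20 and 10.6, 40.5 and 4.76, and 5.96. For both genes western diet + oil lay above all controls while the 2 normal diet + CCl4 libraries lay on either side of control library 2. With normal diet + CCl4 the differences were 1.89 ± 0.74 for Col1a1, 1.98 ± 0.66 for Col1a2 and 2.31 ± 0.79 for Col3a1 (limma adjusted p = 0.193, 0.158 and 0.161), and all 3 passed there without normal diet + CCl4 library 2. With western diet + oil that of Col3a1 was 1.65 ± 0.79 and that of Col1a1 1.15 ± 0.74 (limma adjusted p = 0.258 and 0.395). The type VI collagen chains Col6a1, Col6a2 and Col6a3, which form beaded filaments, and the type V chain Col5a1, which sets fibril width, spanned 0 to 3.68 FPKM. With western diet + oil they were higher by 0.62 to 1.18 and did not pass. Col5a2 reached 3.27 FPKM in normal diet + CCl4 library 1 and stayed at or below 0.764 elsewhere.

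Among basement membrane genes, both type IV collagen chains, laminin beta-1 and nidogen were above all controls in every treated library, whereas Col18a1, Col15a1 and Lamc1 overlapped the controls with western diet + oil. Of the 8 genes 0 passed against normal diet + oil in limma with western diet + oil, normal diet + CCl4 or western diet + CCl4. Their medians were 0.59, 0.57 and 0.44. Col4a1 and Col4a2 encode the alpha-1 and alpha-2 chains that assemble into the common type IV network. Col4a1 had 0.923, 1.91 and 1.96 FPKM with normal diet + oil, 5.66 and 5.25 with western diet + oil, 9.33 and 2.65 under normal diet + CCl4, and 6.61 in western diet + CCl4. Col4a2 had 0.870, 1.65 and 1.54 FPKM, then 3.57 and 3.35, 6.73 and 2.50, and 3.47. All 5 treated libraries were above all 3 controls for both chains. The differences for Col4a1 were 1.34 ± 0.40, 1.27 ± 0.40 and 1.58 ± 0.51 in western diet + oil, normal diet + CCl4 and western diet + CCl4 (limma adjusted p = 0.0996, 0.145 and 0.202). This pair lies head to head on chromosome 8, with annotated starts at 11312826 on the minus strand for Col4a1 and 11312805 on the plus strand for Col4a2, so that their first exons share 22 bases. Whether the counting used strand is not stated, so reads in those bases cannot be assigned to one of them. The ratio of Col4a1 to Col4a2, per length, lay between 1.06 and 1.90 over the 8 libraries.

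Lamb1, the beta-1 chain of laminin, had 0.444, 0.519 and 0.476 FPKM with normal diet + oil, 1.69 and 1.51 with western diet + oil, 2.15 and 0.744 under normal diet + CCl4 and 1.08 in western diet + CCl4. Its controls were tight and every treated library was above them, with a difference of 0.81 ± 0.25 with western diet + oil (limma adjusted p = 0.109). Nid1, nidogen, which links laminin to type IV collagen, ran from 0.347 to 0.628 FPKM in controls and reached 7.70 in normal diet + CCl4 library 1 and 1.66 in library 2 (difference 1.67 ± 0.42, limma adjusted p = 0.109). Col18a1, whose product is cleaved to release endostatin and which hepatocytes are known to express, differed by 0.03 ± 0.19 with western diet + oil, and its sign turned with median-of-ratios scaling and without the Mup genes. Col15a1, a related collagen of vessel walls, differed by -0.12 ± 0.24 with western diet + oil and by -0.30 ± 0.24 under normal diet + CCl4. Hspg2, the heparan sulphate proteoglycan perlecan, and Lamc1, the gamma-1 chain of laminin, ranged from 0.586 to 1.99 and from 0.875 to 2.73 FPKM.

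All 3 small leucine-rich proteoglycans stood above all controls in every treated library. Of the 3 genes 1, Dcn, rose with western diet + oil and 0 passed in the other groups, with medians of 1.36, 1.28 and 1.19. Dcn (ENSMUSG00000019929, chr10:97479609-97518143, plus strand) encodes decorin, which binds collagen fibrils and TGF-beta. It had 27.0, 26.6 and 23.2 FPKM with normal diet + oil, 72.4 and 77.4 with western diet + oil, 78.5 and 36.2 under normal diet + CCl4 and 53.3 in western diet + CCl4. The western diet + oil mean was 2.93 times that of the controls, a difference of 1.51 ± 0.30 (limma adjusted p = 0.0365). Bgn, biglycan, had 20.5, 19.9 and 16.7 FPKM, then 42.5 and 59.3, 79.9 and 28.1, and 44.6. It did not pass with western diet + oil (1.36 ± 0.39, limma adjusted p = 0.0891). Lum, lumican, which limits fibril thickness, had 0.839, 1.42 and 0.795 FPKM, then 2.85 and 3.37, 10.2 and 2.93, and 8.00. Lumican was the member with the lowest adjusted p in the western diet + CCl4 library, at a difference of 2.17 ± 0.49 (limma adjusted p = 0.10), and had 1.73 ± 0.39 under normal diet + CCl4 (0.0836).

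Among the 13 glycoproteins and elastic fibre genes 1, Postn, rose with western diet + oil, 1, Mfap4, rose under normal diet + CCl4, and 0 passed in western diet + CCl4. Their medians were 0.51, 0.59 and 0.50. Postn (ENSMUSG00000027750, chr3:54361109-54391037, plus strand) encodes periostin, a matricellular protein made by activated fibroblasts. It had 0.576, 0.908 and 0.768 FPKM with normal diet + oil, 5.26 and 6.89 with western diet + oil, 6.22 and 1.79 under normal diet + CCl4 and 3.87 in western diet + CCl4. All treated libraries were above the controls, and western diet + oil library 2 was the highest of the 8. The western diet + oil mean was 8.10 times that of the controls, the widest of the 5 called, with a difference of 2.01 ± 0.36 (limma adjusted p = 0.0275). Mfap4 (ENSMUSG00000042436, chr11:61485431-61488900, plus strand) encodes a microfibril-associated protein of elastic fibres. It was listed at 0 in all 3 controls and had 0.470 and 0.832 FPKM with western diet + oil, 2.45 and 1.14 under normal diet + CCl4 and 1.32 in western diet + CCl4. Its difference under normal diet + CCl4 was 1.44 ± 0.24 (limma adjusted p = 0.0386), a value that depends on the pseudocount, since the controls are at 0. Only libraries with CCl4 reached 1 FPKM, so the gene was tested through the libraries where it is high. Mfap4 overlaps exons of Mapk7 on the opposite strand, whose own values were 0, 0 and 0.259 FPKM in controls, 0.898 and 0.938, 1.098 and 0.402, and 0.724, so reads of the pair may not be separable.

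Sparc, a collagen-binding glycoprotein, had 7.80 to 12.9 FPKM in controls, 25.3 and 33.2 with western diet + oil, 68.6 and 18.1 under normal diet + CCl4 and 20.0 in western diet + CCl4. It stood above all controls in every treated library and did not pass (1.55 ± 0.49 with western diet + oil, limma adjusted p = 0.113). Tgfbi, a TGF-beta-induced adhesion protein, was nearest to passing among the other members with western diet + oil, at 17.2 and 21.6 FPKM against 4.28 to 5.95 in controls (1.71 ± 0.40, limma adjusted p = 0.0569). Efemp1, fibulin-3, was higher with western diet + oil (4.65 and 5.57 FPKM) than in any other library, where it lay between 1.54 and 3.54 FPKM, and its difference under normal diet + CCl4 was -0.15. Fn1 and Vtn, both plasma proteins, differed by -0.11 ± 0.27 and -0.11 ± 0.21 with western diet + oil. Elastin (Eln), fibulins 2 and 5 and thrombospondin-1 (Thbs1) never exceeded 1.84 FPKM, and Thbs1 was above 0 in 3 libraries, at 0.288, 0.301 and 0.541 FPKM, close to the smallest values listed.

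Of the 12 remodelling genes 1, Serpinh1, rose with western diet + oil and 0 passed in normal diet + CCl4 or western diet + CCl4, with medians of 0.73, 0.74 and 0.67. Serpinh1 (ENSMUSG00000070436, chr7:99345376-99353239, minus strand) encodes the procollagen chaperone of the endoplasmic reticulum. It had 2.76, 3.34 and 3.42 FPKM with normal diet + oil, 9.98 and 13.01 with western diet + oil, 16.8 and 6.56 under normal diet + CCl4 and 9.69 in western diet + CCl4. The lowest treated library was above the highest control, and the western diet + oil mean was 3.62 times that of the controls (difference 1.58 ± 0.33, limma adjusted p = 0.0415). Among proteases, Mmp14, a membrane-bound collagenase that activates Mmp2, had 4.51, 7.05 and 5.84 FPKM, then 12.1 and 9.89, 11.3 and 5.64, and 10.9. Mmp2, a gelatinase, had 0.519, 0.937 and 0.323 FPKM, then 1.20 and 1.19, 3.23 and 1.07, and 2.08. Both were higher in western diet + oil than in all controls, and for Mmp14 normal diet + CCl4 library 2 lay within the controls. Neither passed (0.83 ± 0.28 for Mmp14 and 0.48 ± 0.31 for Mmp2 with western diet + oil, limma adjusted p = 0.133 and 0.393).

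Timp1, the inducible metalloproteinase inhibitor, was uneven within the control group. It was listed at 0, 2.84 and 0 FPKM with normal diet + oil, 1.01 and 3.25 with western diet + oil, 3.07 and 0.490 under normal diet + CCl4 and 1.31 in western diet + CCl4. All 3 treated groups overlapped the controls because control library 2 was at the level of the highest treated libraries. Timp2 and Timp3, inhibitors expressed more evenly, were above all controls in every treated library, with differences of 1.05 and 0.80 with western diet + oil (limma adjusted p = 0.121 for each). Timp3 lies within Syn3 on the opposite strand, which was above 0 in 2 libraries only, at 0.874 and 0.316 FPKM. The lysyl oxidase Lox was at 0 in 7 libraries. Its relatives Loxl1 and Loxl2 reached 1.66 and 2.19 FPKM in normal diet + CCl4 library 1, and Loxl2 was above 0 in all 5 treated libraries while at 0 in all controls. The collagenase gene Mmp13 was at 0 in 7 libraries and at 0.430 FPKM in the other. Adamts1, a proteoglycan-cleaving protease, had 1.49 and 1.58 FPKM with western diet + oil against 0.650 to 0.847 in controls and 0.648 in western diet + CCl4. Adamts2, which trims the N-terminal propeptide of procollagen, stayed at or below 1.66 FPKM.

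Tgfb1 (ENSMUSG00000002603, chr7:25687002-25705077, plus strand), the ligand, rose with western diet + oil. It had 0.870, 1.48 and 1.18 FPKM with normal diet + oil, 4.82 and 5.81 with western diet + oil, 4.72 and 1.67 under normal diet + CCl4 and 3.33 in western diet + CCl4. All treated libraries were above the controls, normal diet + CCl4 library 2 only just. The western diet + oil mean was 4.52 times that of the controls (1.54 ± 0.31, limma adjusted p = 0.0365), and the difference under normal diet + CCl4 was 0.85 ± 0.31 (0.172).

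**Figure D3:**
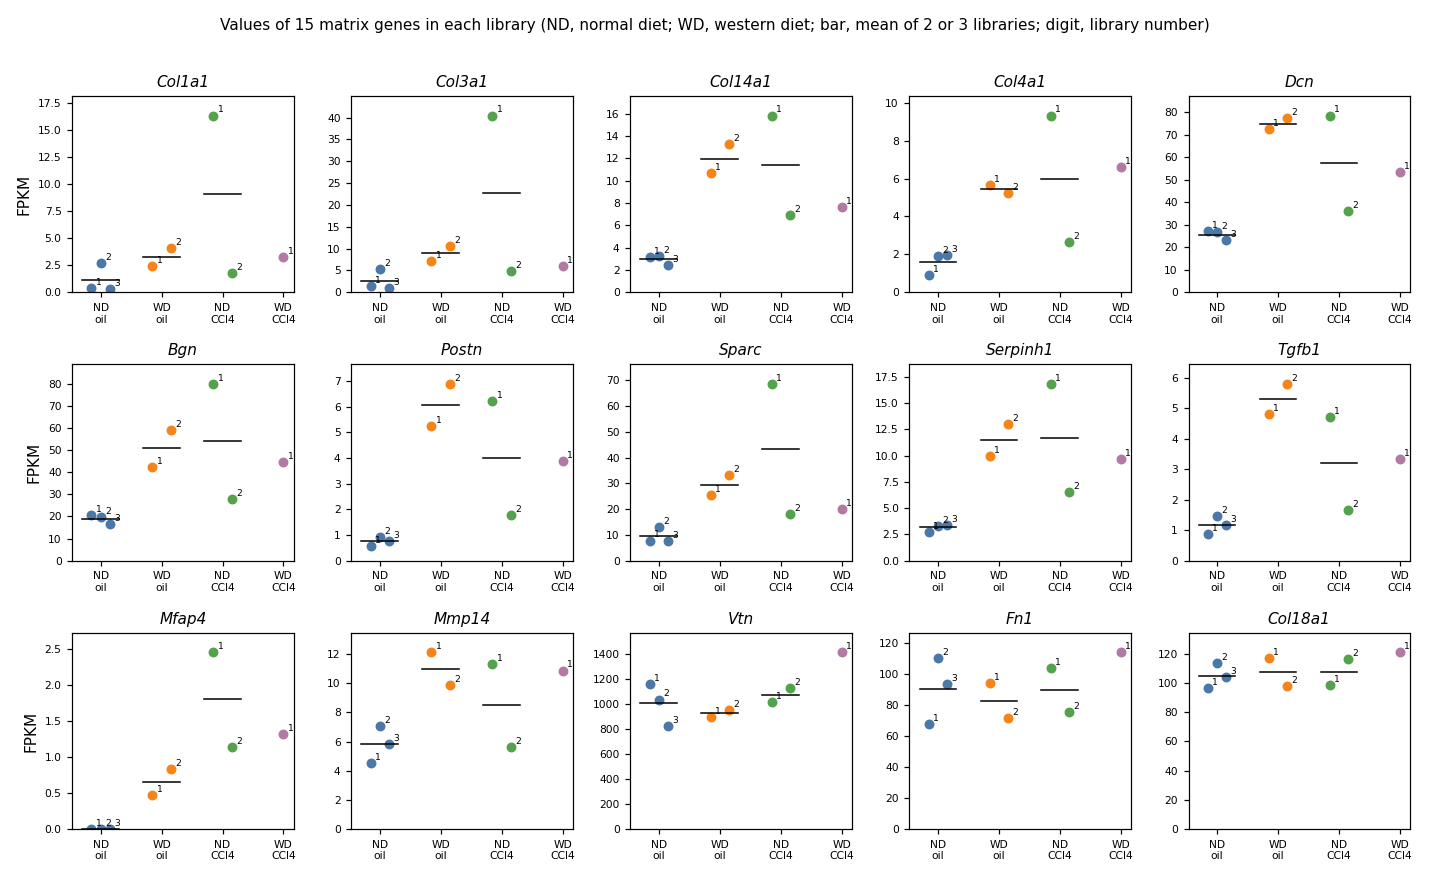
FPKM (vertical axis, a linear scale for each gene) in each library, numbered within its group, for 15 matrix genes, with bars at group means and 4 groups along the horizontal axis. For Dcn, Col14a1, Serpinh1 and Tgfb1 the western diet + oil libraries sit together above the controls, whereas for Col1a1 and Col3a1 normal diet + CCl4 library 1 stands alone at 16.4 and 40.5 FPKM.

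The 2 normal diet + CCl4 libraries stood apart from each other. Library 1 was above library 2 for 44 of the 46 genes, Col18a1 and Vtn being the exceptions, with a median log2(FPKM + 1) difference of 1.02. Over the 36 tested members the median was 1.10, with 34 above 0. Over all tested genes it was 0.18, with 8059 of 11514 above 0. The difference passed 1 for 24 of the 46 and 22 of the 36 tested, against 5.46% of all tested genes. Library 1 was the highest of all 8 libraries for 36 of the 46 and 26 of the 36 tested, against 37.4% of all tested genes. With 1 library against 1 there is no test. By role the medians were 1.29 for the fibrillar collagens and assembly partners, 8 of which passed 1, and 1.48 for the proteoglycans. They were 0.97 for remodelling, 0.81 for the basement membrane and 0.69 for the glycoproteins. The FPKM ratio of library 1 to library 2 was 9.25 for Col1a1, 8.51 for Col3a1 and 6.98 for Col1a2, against 2.17 for Dcn.

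The libraries also stood differently toward the other groups. Library 1 was above all 3 normal diet + oil libraries for 42 of the 46 genes (67.8% of all tested genes) and library 2 for 25 (50% of all). Against western diet + oil, library 1 was above both libraries for 38 genes (51.5% of all) and library 2 was below both for 33 (41.8% of all). Library 1 was thus above western diet + oil for most of the 46 genes and library 2 below it. These counts include the 10 genes not tested, which the shares leave out. Other genes moved with library 1. Its 10 proliferation markers were a median of 2.87 log2(FPKM + 1) units above library 2 and summed to 125.9 against 14.2 FPKM. Of the 16 markers of stellate cells and myofibroblasts, 15 were higher in library 1, with a median of 1.02 and sums of 121.8 and 68.3 FPKM, and smooth muscle actin (Acta2) was 4.27 against 0.830. The 16 Kupffer cell and macrophage markers had a median of 1.34, and the 12 hepatocyte markers -0.03. The 8 cholangiocyte markers had a median of 0.35, and their sum was 463.3 against 31.9 FPKM, most of it Spp1. Their part in the difference between the libraries was not tested.

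**Figure D4:**
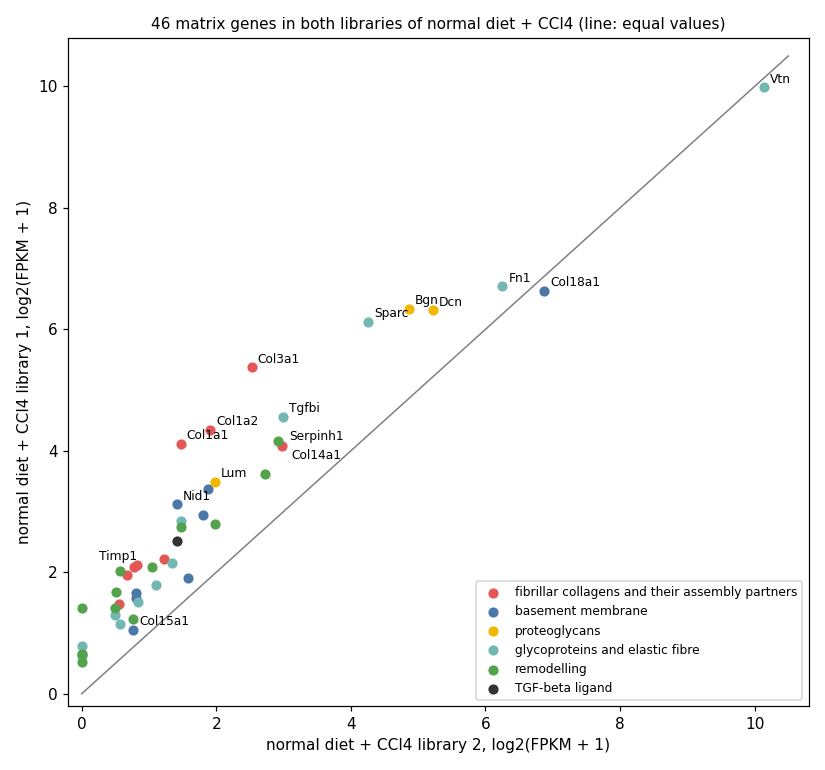
Each of the 46 matrix genes by its log2(FPKM + 1) in normal diet + CCl4 library 2 (horizontal axis) and library 1 (vertical axis), coloured by role, with the line of equal values. All points but Col18a1 and Vtn lie above the line, and Col1a1, Col1a2 and Col3a1 lie farthest from it among the fibrillar collagens.

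The library with both treatments mostly lay inside the range of CCl4 alone. It was found between the 2 normal diet + CCl4 libraries, ties included, for 39 of the 46 genes, above both for 5 and below both for 2. For Fbln1, Fbn1, Thbs1, Mmp13 and Lox, none of them tested, this was a tie at 0 with library 2. Of all tested genes 37.1% lay between the 2, a share that leaves out ties and is thus not a like measure. Against the western diet + oil libraries it was higher than both for 13 genes and lower than both for 17. Of the 36 tested members it was higher for 10 and lower for 16 (26.4% and 36.8% of all tested genes). In limma 0 of the 36 tested genes passed in western diet + CCl4 against western diet + oil (0.0434% of all genes called), with 0 higher and 1 lower, Adamts1, at an unadjusted p below 0.05 (1.93% and 2.26% of all genes). Against normal diet + CCl4 0 passed (0.261% of all genes called), with 0 at an unadjusted p below 0.05 (7.1% of all), and for normal diet + CCl4 against western diet + oil 0 passed (0.617% of all genes called), with 1 higher, Mfap4 (0.73 ± 0.27), and 1 lower, Efemp1 (-0.86 ± 0.27), at an unadjusted p below 0.05 (5.75% and 5.36% of all). The smallest adjusted p of a member in these 3 comparisons were 1, 0.830 and 0.268.

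Whether the effect of CCl4 differed between the diets was tested by the interaction of both. It passed for 0 of the 36 genes (0.0608% of all tested genes called), with 0 higher and 12 lower at an unadjusted p below 0.05, against 1.43% of all genes higher and 8.35% lower. The smallest p was that of Col14a1 (-2.14 ± 0.50, limma adjusted p = 0.278). Postn had -1.89, Serpinh1 -1.70, Dcn -1.52 and Sparc -2.35, values below 0 that mean the western diet + CCl4 library lay under the sum of both single effects. Without normal diet + CCl4 library 2 the interaction was lower for Col14a1, Dcn, Nid1, Postn, Serpinh1, Sparc, Tgfb1 and Tgfbi, and calls over all tested genes rose too. The count was 0 without each control library, each western diet + oil library or normal diet + CCl4 library 1, and the interaction could not be fitted without the western diet + CCl4 library.

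Ratios of genes within a library do not depend on how libraries are scaled. The ratio of the fibrillar group (fibrillar collagens and assembly partners) to the proteoglycans was highest in normal diet + CCl4 library 1. The FPKM of the 9 genes of that group was 0.148, 0.388 and 0.138 of that of the 3 proteoglycans with normal diet + oil, 0.269 and 0.294 with western diet + oil, 0.634 and 0.298 under normal diet + CCl4 and 0.281 in western diet + CCl4. Control library 2 had the next highest value. The group is not fibril formers alone. Col14a1 made up 3.12 of its 7.16 FPKM in control library 1 and 2.46 of 5.60 in control library 3. Col1a1 to Dcn followed the same order at the top, 0.209 in normal diet + CCl4 library 1 and 0.101 in control library 2, with 0.0123 to 0.0619 elsewhere. In contrast the basement membrane genes other than Col18a1 stayed between 0.119 and 0.192 of the proteoglycans in all 8 libraries. Col18a1 held most of that group's FPKM, and with it the ratio was not steady. The full group then summed to 111.8 FPKM against 40.6 for the proteoglycans in control library 3. In normal diet + CCl4 library 1 it was 130.1 against 168.6. The ratio of the protease Mmp14 to its inhibitor Timp2 was 5.09, 4.98 and 5.45 with normal diet + oil, 4.20 and 2.50 with western diet + oil, 1.97 and 3.18 under normal diet + CCl4 and 4.19 in western diet + CCl4, so all 5 treated libraries were below all 3 controls. That of Mmp2 to Timp2 overlapped, at 0.586, 0.662 and 0.301 in controls, 0.415 and 0.301, 0.563 and 0.604, and 0.802. Col1a1 to Col1a2, chains of the same trimer, lay between 0.430 and 0.948. More ratios were computed than are given here. Among those, Postn to Dcn and Col14a1 to Dcn also set all 5 treated libraries apart from all 3 controls, both higher. The rest overlapped. The ratios were described and not tested.

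**Figure D5:**
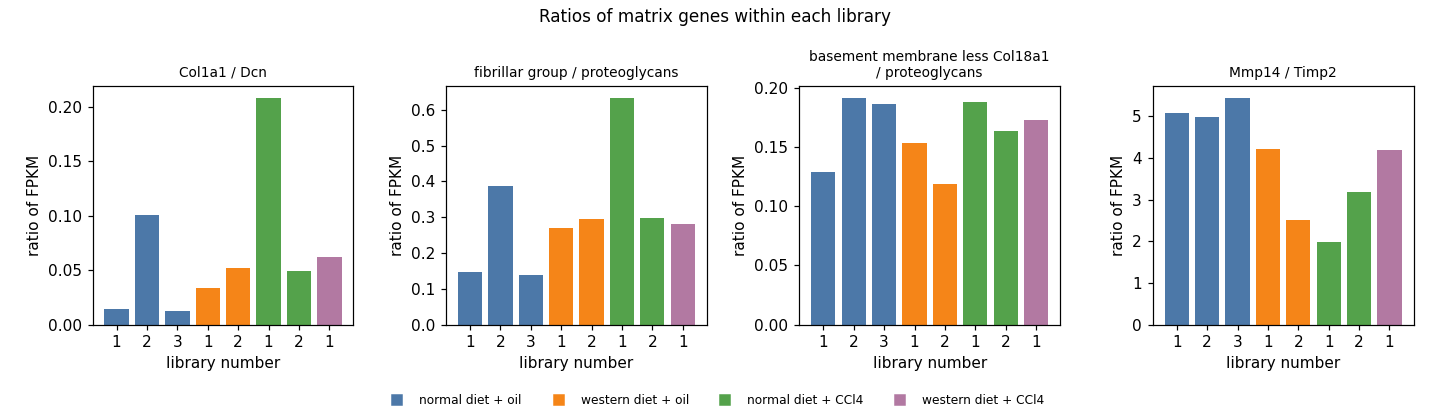
Ratios of FPKM within each of the 8 libraries (bars from 0, coloured by group). The ratio of the fibrillar group (fibrillar collagens and assembly partners) to proteoglycans peaks at 0.634 in normal diet + CCl4 library 1. That of Mmp14 to Timp2 is 4.98 or more in the controls and 4.20 or less elsewhere.

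The wider matrix was read from 150 other genes in 8 lists, 81 of which were tested. With western diet + oil 11 rose and 1 fell, against 3.81% and 0.599% of all tested genes, with a median difference of 0.60 over the 81 and 0.28 over the 150, the latter near the 0.22 of all tested genes. The 6 with the smallest p were Gpc1, the cell-surface proteoglycan glypican-1 (1.93 ± 0.20, limma adjusted p = 0.00869), Srgn, the proteoglycan serglycin of blood cell granules (1.75 ± 0.32), the scavenger and thrombospondin receptor Cd36 (2.68 ± 0.49), the collagen prolyl hydroxylase P4ha1 (1.15 ± 0.21), Ecm1 (1.37 ± 0.26) and the syndecan Sdc3 (1.79 ± 0.34). Gpc1 had 0.673, 1.46 and 1.12 FPKM in controls, 6.13 and 7.66 with western diet + oil, 3.37 and 3.68 under normal diet + CCl4 and 2.97 in western diet + CCl4, and was the 1 gene of the 150 that also passed under normal diet + CCl4 (1.14 ± 0.20, limma adjusted p = 0.0404). Both of its CCl4 libraries were alike, unlike those of the fibrillar collagens. The protease inhibitor Serpine2 fell by 1.46 ± 0.32 on the log2(FPKM + 1) scale with western diet + oil (limma adjusted p = 0.0467). By list, 4 of 10 tested proteoglycans rose with western diet + oil, 3 of 15 glycoproteins, 3 of 9 matrix receptors and 1 of 11 collagen processing genes. Of 15 tested TGF-beta pathway genes 0 passed, of 5 basement membrane genes 0 and of 4 other collagens 0. Without normal diet + oil library 1, 2 or 3 the count with western diet + oil was 2, 2 or 2 higher and 0 lower, without either western diet + oil library 0, without normal diet + CCl4 library 1 or 2 it was 29 or 33 higher, and with median-of-ratios scaling 2 higher and 1 lower. The Gpc1 call under normal diet + CCl4 ended with that scaling, without the Mup genes and on leaving out any control library, either western diet + oil library or normal diet + CCl4 library 1, while 33 rose and 1 fell without library 2. In western diet + CCl4 0 of the 81 passed, and 10 or 14 rose and 1 fell without normal diet + CCl4 library 1 or 2.

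Markers of the cells known to make or surround matrix, and of other cells a liver sample can hold, were read in the same libraries. Of all tested genes 3.81% were called higher with western diet + oil, 1.02% under normal diet + CCl4 and 0.669% in western diet + CCl4. Counts of markers that rose are to be read against these shares. Stellate cell and myofibroblast markers (16 genes) summed to 64.1, 52.1 and 46.9 FPKM with normal diet + oil, 127.6 and 175.3 with western diet + oil, 121.8 and 68.3 under normal diet + CCl4 and 77.4 in western diet + CCl4. In that last library their median difference from the controls was 0.26, near the 0.19 of all tested genes, with 3 of the 16 below 0. Over the 15 tested it was 0.31. Of the 15 tested stellate cell and myofibroblast markers 3 rose with western diet + oil, Rgs5, Colec11 and Ecm1. Ecm1 is also in the glycoprotein list. Under normal diet + CCl4 1 of the 15 rose. Portal fibroblast and mesothelial markers (10 genes) summed to 2.36 to 4.78 FPKM in controls, 9.87 and 10.6, 13.5 and 5.61, and 16.0, with Gli1 at 0 everywhere. Of the 3 tested, 1 rose with western diet + oil, and a marker of this list also rose in western diet + CCl4. The 16 Kupffer cell and macrophage markers summed to 94.6 to 187.6 FPKM in controls and 710.4 and 1424 with western diet + oil. They summed to 645.3 and 203.9 under normal diet + CCl4 and 622.0 in western diet + CCl4, and 10 of the 15 tested rose with western diet + oil. That list holds markers of both kinds of cell, so its sum does not tell them apart. The 12 sinusoidal endothelial markers ranged from 42.3 to 58.9 FPKM in controls and from 58.8 to 112.1 in treated libraries, and 4 rose with western diet + oil. The lowest treated value was that of western diet + CCl4, inside the range of the controls, and 4 of the 12 were below 0 there. With median-of-ratios scaling 1 endothelial marker passed with western diet + oil, and 0 without the Mup genes or with no filter on low values. With no filter, 0 Kupffer cell and macrophage markers and 1 stellate marker passed. Without either western diet + oil library the calls of these 3 lists were lost there, and without either normal diet + CCl4 library more rose. Calls over all tested genes fell and rose in the same runs. Without control library 1, 2 or 3 the counts were 2, 0 and 2 for stellate markers. They were 1, 1 and 5 for Kupffer cell and macrophage markers and 0, 0 and 2 for endothelial markers. Neutrophil markers (10 genes) summed to 2.098 to 9.49 FPKM in controls, 4.68 to 46.3 in the single treatments and 488.4 in the western diet + CCl4 library. Of the 7 tested, 2 rose with western diet + oil, and more rose in western diet + CCl4. Erythroid markers (6 genes), a sign of blood, summed to 230.3 to 349.6 FPKM in controls, 928.5 and 554.7 with western diet + oil, 253.1 and 282.2 under normal diet + CCl4 and 733.3 in western diet + CCl4. Of these, 3 rose with western diet + oil, and 0 with median-of-ratios scaling, without the Mup genes, with no filter, or on leaving out any control or western diet + oil library. Of 6 adipose markers, Adipoq, Plin1, Lep and Retn were at 0 in all libraries, and the other 2, Fabp4 and Cfd, both rose with western diet + oil. Fabp4, a fatty acid-binding protein of adipocytes that macrophages and endothelial cells also express, had 3.09, 5.79 and 4.15 FPKM in controls, 33.5 and 46.01 with western diet + oil, 17.7 and 8.76 under normal diet + CCl4 and 38.5 in western diet + CCl4, where it also rose. Cfd, the serine protease adipsin, had 23.3 and 18.8 FPKM with western diet + oil, 0.811 in control library 2 and 0 in the other 5 libraries. Only the western diet + oil libraries reached 1 FPKM, so Cfd was tested through the libraries where it is high. Its call is not independent of the filter. Cholangiocyte markers (8 genes) summed to 21.9 to 42.9 FPKM in controls, 63.6 and 99.6 with western diet + oil, 463.3 and 31.9 under normal diet + CCl4 and 178.6 in western diet + CCl4. Most of that was Spp1, osteopontin, a secreted matricellular protein that other cells also make, at 455.1 and 26.8 FPKM in the 2 normal diet + CCl4 libraries. Cftr of that list was at 0 everywhere, and 0 of its 4 tested genes passed in the 3 comparisons with normal diet + oil. The part of these cell types in the matrix values was not tested.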

How the data were processed

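Liver poly(A) RNA was sequenced from stranded mRNA libraries, per the labels' protocols. The authors deposited FPKM per gene. The submitters' processing notes name HISAT2 2.2.1, StringTie 2.1.0, FastQC 0.11.9, cutadapt 3.7 and the build GRCm38. Settings and the use of strand in counting are not given in the sources used here. Gene coordinates are those of the GENCODE annotation of that build, matched by gene identifier, and those of promoter windows come from the RefSeq promoter table. Raw counts were not used here, so no count test was run. FPKM values were taken to log2(FPKM + 1) and fitted in R 4.3.3 with limma 3.58.1 (4 group means over 8 libraries, eBayes with a trend, 4 residual and 3.93 prior degrees of freedom, two-sided). Genes with at least 1 FPKM in at least 2 libraries were tested, with Benjamini-Hochberg adjustment over all 11514, in 7 contrasts. The fit was also run on simulated data with independent normal noise and no shift shared by the genes of a library. That run therefore does not bear on the differences between libraries seen here. Other pseudocounts, filters and scalings, a replicate block and leaving out libraries were tried. All 46 genes were named, by role, with values in every library for 18 of them and for any that passed, and of the other matrix genes up to 6 with the smallest p. The genes, lists and tests were chosen with earlier results of these data known. The 3 list genes Ctgf, Cyr61 and Leprel1 were matched through RefSeq synonyms.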

Additional observations from a re-analysis of the deposited data

How the results depend on the processing

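With 8 libraries and depth unknown, the counts of matrix genes called depended on single libraries more than on scaling. Calls over all tested genes changed from run to run as well, and the counts of every list are to be read beside that. With western diet + oil 508 of 11514 genes were called in the main fit. It was 283 of 11407 with median-of-ratios scaling and 1104 of 10868 with only the groups compared. With western diet + oil against normal diet + oil, 5 passed. The count was 0 with no filter on low values, 3 with a mean of at least 5 FPKM (where 2 of the 5 were not tested), 2 with median-of-ratios scaling, 3 without the Mup genes, 19 with only the groups compared, 13 with 2 libraries left out together (control library 3 and CCl4 library 1 of the normal diet), and 0 to 19 without each library in turn. With normal diet + CCl4 against normal diet + oil, 1 passed. The count was 0 with no filter, 4 with a common sum per library, 0 with only the groups compared, 0 without those 2 libraries, and 0 to 23 without each library. With western diet + CCl4 against normal diet + oil, 0 passed, 1 with only the groups compared, 4 without those 2 libraries and 0 to 8 without each of the other 7 libraries in turn. The interaction gave 0, and 0 to 8 without each of the same 7, since neither can be fitted without the western diet + CCl4 library. The 3 comparisons among treated groups gave 0 in every alternative run. Replicate numbers are shared between groups, and deviations of same-numbered libraries from their group means had correlations of -0.279 to -0.014. In a group of 2 libraries the deviations mirror each other. The check thus holds few independent values and cannot decide whether the numbers mark pairs. With the replicate number as a block 0 passed in the western diet + oil comparison, and 0 in that of normal diet + CCl4. The median difference between the normal diet + CCl4 libraries was 1.63 with a pseudocount of 0.1. The cause of these changes was not tested. Median-of-ratios scaling brought the median of all genes near 0 and left the medians of the tested matrix genes at 0.85, 0.71 and 0.83. The planned description of collagen protein sequences was not run.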
